A study of Mus musculus with 22 samples.

Results

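The genes of the spliceosome core and of the SR proteins were followed in mouse embryos with and without knockdown (KD) of the histone variant H2A.Z. They were chosen by symbol: every gene whose symbol begins with Snrp followed by one of the letters a to g or a digit, with Sf3a, Sf3b, Lsm, Prpf or Srsf followed by a digit, with symbols holding -ps left out. Of the 55335 genes of the expression table, 60 matched, 2 of these (Snrp1c-ps1 and Snrp1c-ps2) were left out as named pseudogenes, and 58 remained. They fall into 5 subfamilies, with 12 Snrp, 9 Sf3, 13 Lsm, 13 Prpf and 11 Srsf genes, and 57 of them are annotated as protein coding. The other one, Snrpert, is annotated as a processed pseudogene. The rule goes by symbol, so it also takes in genes whose products act outside the spliceosome. These are Lsm1 (mRNA decay), Lsm10 and Lsm11 (histone pre-mRNA processing), Lsm12, and Lsm14a (P-bodies) with its paralog Lsm14b. Sums, counts and medians of the set below include them and Snrpert wherever they were tested or summed. RNA-seq was done on 22 libraries, each from 15 embryos of the B6D2F1 background, harvested as 2-cell embryos 43 to 44 h after hCG, as morulae at 78 h or as blastocysts at 94 h. There were 4 control libraries at each stage, 3 KD libraries of 2-cell embryos, 3 of morulae and 4 of blastocysts. KD zygotes had received about 10 pL of a mix of 3 siRNA pairs at 20 µM by injection at 20 to 22 h after hCG, and the sources do not state whether the control embryos of these libraries were injected. The Smart-seq2 protocol, which copies polyadenylated RNA into full-length cDNA, was used with 16 to 18 cycles of preamplification and reads of 150 bp. Expression is given as FPKM, fragments scaled to the length of the gene and the size of the library. The depth in reads is unknown, and the FPKM of a library summed to between 423915 and 722576. Values of a group are listed in the order of the replicate numbers: 1, 2, 4 and 5 in control and 1, 2 and 4 in KD 2-cell embryos, 1, 2, 7 and 8 in control and 1, 2 and 6 in KD morulae, and 1, 4, 5 and 6 in both groups of blastocysts.

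Introns are removed from pre-mRNA by the spliceosome, which assembles on each intron from small nuclear ribonucleoproteins (snRNPs), each an snRNA with its proteins. Sm proteins, encoded by Snrpb, Snrpd1, Snrpd2, Snrpd3, Snrpe, Snrpf and Snrpg, form a ring around the snRNAs of the U1, U2, U4 and U5 snRNPs, Lsm proteins form a like ring on U6, the SF3A and SF3B complexes let the U2 snRNP hold the branch point, and PRPF proteins build and remodel the later complexes. SR proteins bind exonic sequences through RNA recognition motifs and recruit the machinery through domains rich in arginine and serine, and after fertilization the embryo replaces maternal transcripts, these among them, with its own.

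The KD was read first from the 2 genes encoding H2A.Z. The siRNAs are described as directed against H2A.Z; their sequences were not at hand, so whether H2afv was targeted was not known here. In 2-cell embryos, H2afz stood at 1244, 1236, 905 and 1178 FPKM in control and at 415, 139 and 112 FPKM in KD libraries. In morulae it stood at 1158, 1336, 1511 and 1421 FPKM in control and 30.3, 25.7 and 29.0 FPKM in KD libraries. In blastocysts, control libraries had 2656, 2431, 1945 and 2055 FPKM and KD libraries 64.2, 67.2, 53.2 and 57.6 FPKM. At each stage every KD library lay below every control library, as the labels say, and the KD 2-cell library of replicate 1 was the highest of its group. H2afv, the other H2A.Z gene, was at 96.8 to 118 FPKM in control and 83.7 to 97.6 in KD 2-cell embryos, at 92.5 to 113 and 9.90 to 12.9 in morulae and at 49.9 to 63.5 and 10.6 to 19.9 in blastocysts. In morulae, H2afz fell (log2 fold change -5.41, SE 0.17, adjusted p = 9.72e-08) and so did H2afv (-2.94, SE 0.15, adjusted p = 2.92e-06), in 3 of 3 KD libraries. Both also fell in blastocysts, H2afz by 5.19 on the log2 scale (SE 0.20, adjusted p = 3.63e-08) and H2afv by 1.86 (SE 0.22, adjusted p = 7.98e-05), in 4 of 4 KD libraries. In 2-cell embryos neither gene passed the limma test with Benjamini-Hochberg adjustment over all genes (H2afz -2.53, SE 0.38, adjusted p = 0.544; H2afv -0.23, SE 0.16, adjusted p = 0.839), although H2afz passed it without KD 2-cell replicate 1 (adjusted p = 0.000909), or with all 22 libraries in 1 fit (0.000301). Replicates may be technical, since the labels do not say that they came from separate matings, and p-values then measure the spread between these samples.

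The stage labels were held against marker genes. The 5 genes of the 2-cell list (Zscan4c, Zscan4d, Zfp352, Tdpoz4 and Usp17lc) summed to 226, 242, 203 and 168 FPKM in control 2-cell libraries, with Zfp352 the most abundant, and to at most 6.03 FPKM in control morulae. Oocyte genes (Gdf9, Bmp15, Zp3 and Oosp1) summed to 729 to 989.7 FPKM in control 2-cell embryos, to 4.62 to 9.95 in control morulae and to 1.71 to 2.17 in control blastocysts. The list of morula and blastocyst genes (Pou5f1, Nanog, Sox2, Tfap2c, Krt8 and Krt18) summed to 10.5 to 18.7 FPKM in control 2-cell embryos, to 219.8 to 288 in control morulae and to 1068 to 1562 in control blastocysts. None of the marker ranges of control 2-cell embryos overlapped those of later control embryos in these 3 lists. Of the 6 cumulus cell genes, Ptx3 was listed at 0 in all 22 libraries and the list summed to at most 0.398 FPKM in any library. The primitive endoderm list (Gata4, Gata6, Sox17 and Pdgfra) summed to 1.53 to 10.5 FPKM in control 2-cell embryos, led by Gata4, and to 9.01 to 27.98 and 10.2 to 20.3 FPKM in control morulae and blastocysts, led by Gata6, and in KD blastocysts to 10.2 to 37.1 FPKM. The trophectoderm list was led by Gata3 in blastocysts (29.9, 34.8, 39.3 and 35.9 FPKM in control libraries).

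Summed over all 58 genes, the spliceosome and SR protein genes held 2899, 2853, 2847 and 2848 FPKM in control 2-cell embryos, 5241, 5437, 5265 and 5159 FPKM in control morulae and 5779, 4946, 4803 and 5411 FPKM in control blastocysts. The sums at the 2-cell stage lay below every later control library, while those of morulae and blastocysts overlapped. As a share of the FPKM total of the library, however, control morulae (0.878% to 0.916%) lay above all control blastocysts (0.743% to 0.807%), and both above the 2-cell embryos (0.592% to 0.672%). In KD libraries the sums were 2945, 3295 and 2662 FPKM at the 2-cell stage, 5356, 4996 and 5063 FPKM in morulae and 4985, 5272, 4366 and 4721 FPKM in blastocysts, which overlapped the control sums at each stage. This too depended on the scale, since as a share of the total the KD morulae (0.81% to 0.87%) lay below all control morulae. Among subfamilies, the Prpf sums of KD morulae (176, 192 and 176 FPKM) lay below those of control morulae (229.7, 213, 222 and 233 FPKM). The Snrp genes had the largest share, with mean sums in control embryos of 1024 ± 80.9 (SD, n = 4), 2099 ± 31.1 and 2366 ± 296 FPKM in stage order. Srsf genes summed to 689 ± 44.0, 1328 ± 43.8 and 1029 ± 73.1 FPKM, and Lsm genes to 646 ± 57.2, 1234 ± 73.4 and 1298 ± 139 FPKM. Sf3 genes summed to 261 ± 32.4, 389.5 ± 17.9 and 334 ± 18.9 FPKM and Prpf genes to 242 ± 71.6, 225 ± 8.95 and 208 ± 6.89 FPKM. In each subfamily the highest mean over the 22 libraries was that of Snrpe (489 FPKM), Srsf7 (432 FPKM), Lsm8 (175 FPKM), Sf3b6 (159.8 FPKM) and Prpf38a (114 FPKM), although Lsm8 led the Lsm genes in none of the 6 groups. At the other end, Srsf12 was listed at 0 in 17 libraries and never exceeded 0.129 FPKM.

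**Figure D1:**
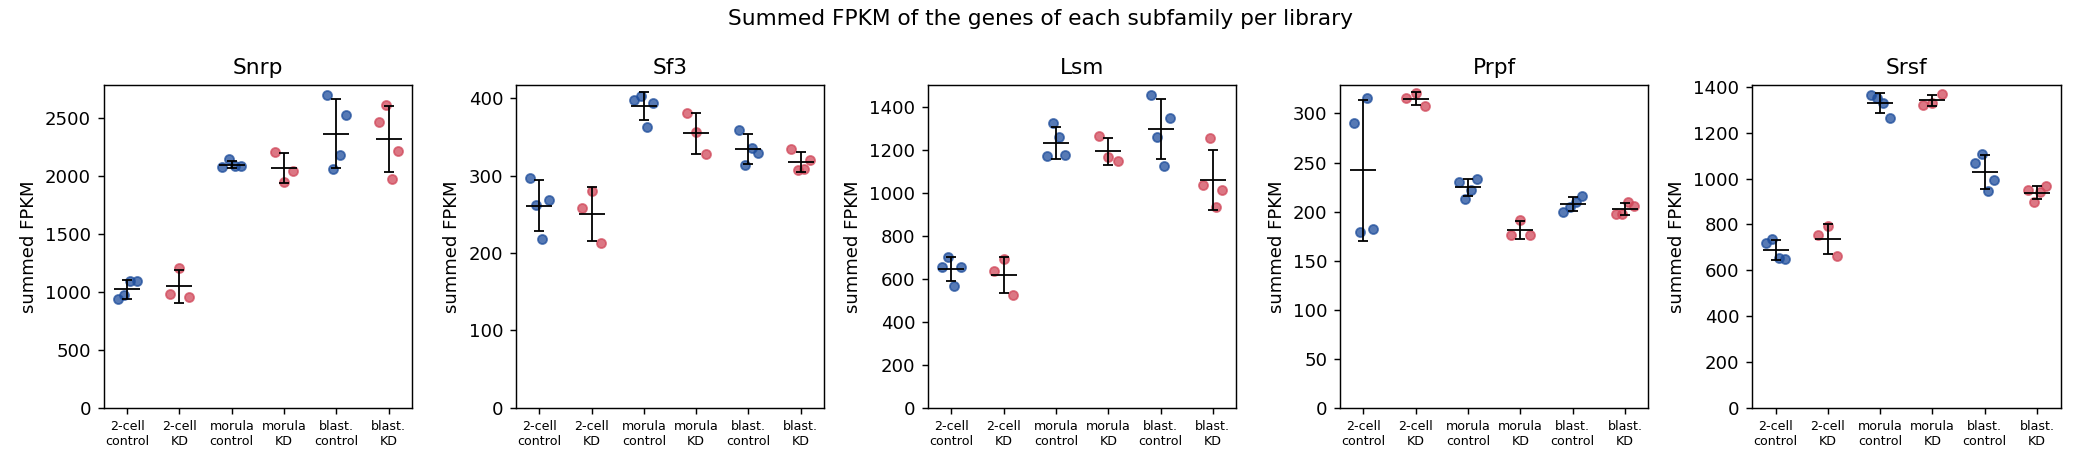
Summed FPKM of the genes of each subfamily in each of the 22 libraries, with 1 panel for each subfamily and its own scale from 0; blue points are control and red points KD libraries, and black bars give the mean and SD of the group. The control 2-cell sums lay below all control morula sums in the Snrp, Sf3, Lsm and Srsf panels, while the Prpf sums of control 2-cell embryos spread from 179 to 316 FPKM.

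A gene was tested where its FPKM reached 1 in at least 3 libraries of the comparison. Prpf19, which encodes the scaffold of the PRPF19 complex, stayed between 0.282 and 1.28 FPKM and was tested nowhere. Lsm11, which encodes the partner of LSM10 in the U7 snRNP, was at 0.308 to 1.08 FPKM, Sf3a2, which encodes an SF3A subunit, at 0.0306 to 0.688 FPKM and Prpf40b at 0.00736 to 0.229 FPKM. Together with Srsf12 these 5 genes were left out of every test. Lsm14b, at 2.82, 3.26, 2.84 and 2.06 FPKM in control 2-cell embryos and at most 0.352 FPKM in any later library, passed only through 2-cell libraries and was left out of every test without them. Thus 53 members were tested in the comparisons with 2-cell embryos and 52 in the others.

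From the control 2-cell embryo to the control morula, more of these genes rose than fell. By limma with Benjamini-Hochberg adjustment, 30 of 53 tested members rose and 9 fell, at an adjusted p under 0.05, against 43% of all 13655 genes tested that rose and 40.3% that fell. The median log2 fold change was 0.59 over the members and 0.10 over all genes, with 36 members higher and 17 lower, and a log2 fold change beyond 1 was reached by 20 of the risers and 4 of the fallers, beside 4406 and 4141 of all genes. The fallers include Lsm14b, which entered through the 2-cell libraries alone and could only count as a fall; without it 8 of 52 fell, 3 of them beyond 1. With libraries scaled to the same total, the median of all genes moved to -0.21 and that of the members to 0.20, with 23 members called higher and 16 lower. Under that scaling 8 members kept their calls while their log2 fold changes moved by more than 1.5 times, to 0.46 for Snrpa1, 0.48 for Snrpf, 0.34 for Snrpg, 0.57 for Prpf8, 0.70 for Srsf7, -0.92 for Prpf4, -1.11 for Srsf5 and -0.99 for Srsf10. From the control morula to the control blastocyst, 4 of 52 members rose and 18 fell, against 27.6% and 28.8% of 11849 genes. Here the members had a median of -0.24 and all genes one of -0.03, with 18 members higher and 34 lower. Scaled to the same total, the median of all genes moved to -0.11, with 5 members called higher and 21 lower; with FPKM as deposited 10 members were called higher and 13 lower. Left out singly, control morula replicate 1 or control blastocyst replicate 6 brought the members called higher down to 2, and the all-library fit called 8 higher and 14 lower. Both comparisons use the same control morulae, so a value high in those libraries enters the first with one sign and the second with the other. Fewer cells that express a gene and less of its RNA per cell cannot be told apart in these libraries, which pool whole embryos.

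By subfamily, the step to the morula brought rises in 10 of 12 Snrp, 5 of 8 Sf3, 7 of 12 Lsm, 3 of 11 Prpf and 5 of 10 Srsf genes tested, and falls in 0, 0, 4 (Lsm14b among them), 2 and 3 of them. Among all genes tested, 43% rose and 40.3% fell at this step, and no subfamily was tested against all genes. For the zeros, limma gave an unadjusted p under 0.05 to 10 Snrp genes, the same 10 that were called higher. Among Sf3 genes there were 6, of which 5 were called higher. Of all 13655 genes tested, 11487 had such a p. Medians were 0.78 for Snrp, 0.63 for Sf3, 0.84 for Lsm, -0.28 for Prpf and 0.56 for Srsf genes. The step to the blastocyst brought falls in 6 of 10 Srsf, 4 of 8 Sf3, 5 of 11 Prpf, 2 of 11 Lsm and 1 of 12 Snrp genes. Rises came from 3 Lsm genes and 1 Snrp gene, and from none of the Sf3, Prpf and Srsf genes. In these subfamilies limma gave an unadjusted p under 0.05 to 5, 5 and 6 genes, beside 7253 of all genes. The 5 Prpf and 6 Srsf genes were those called lower, as were 4 of the 5 Sf3 genes. Among all genes tested, 27.6% rose and 28.8% fell from the morula to the blastocyst. The medians of that step were 0.24 (Snrp), -0.37 (Sf3), 0.30 (Lsm), -0.42 (Prpf) and -0.41 (Srsf).

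**Figure D2:**
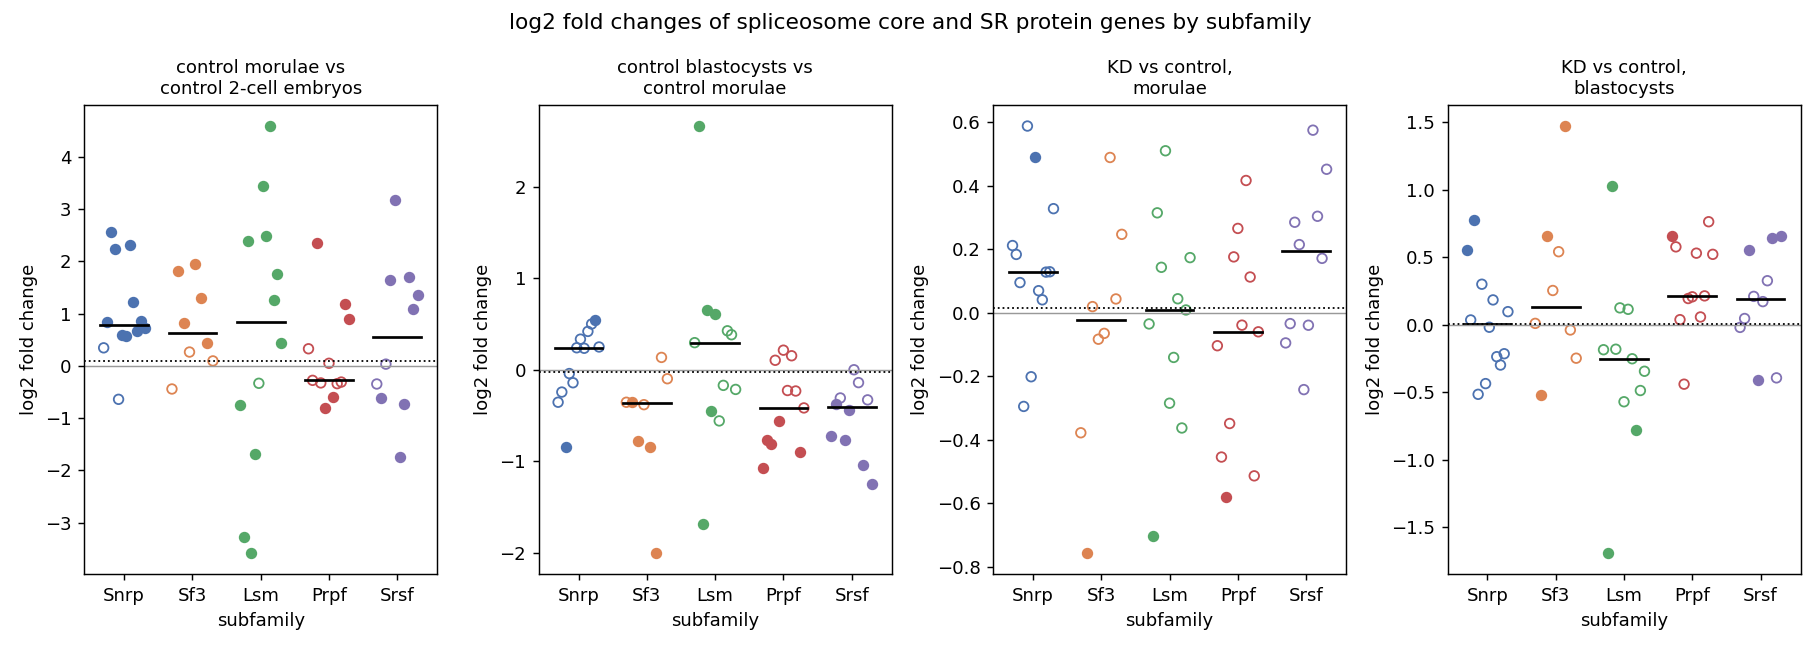
The log2 fold change of each tested gene by subfamily in 4 comparisons, 1 panel each, with a y axis of its own in each panel; filled points passed limma at an adjusted p under 0.05 and open points did not, black bars are subfamily medians and the dotted line is the median of all genes tested. In the step to the morula 10 of the 12 Snrp genes are filled and above 0, and in the step to the blastocyst 6 of the 10 Srsf genes are filled and below 0. Of all genes tested, 43% were called higher in the step to the morula and 28.8% lower in the step to the blastocyst.

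All 7 genes of the Sm ring were called higher at the step from the 2-cell stage to the morula, by very different amounts. Of all 13655 genes tested, 43% were called higher at this step. Not all 7 calls held in every setting. Snrpb, encoding SmB, stood at 62.1, 56.4, 74.4 and 79.5 FPKM in control 2-cell embryos, 481, 470.1, 289 and 414 in morulae and 199, 227, 267 and 276 in blastocysts. The morula libraries were the highest, all above the blastocyst libraries, and those above all 2-cell libraries. It rose in 4 of 4 morula libraries (log2 fold change 2.56, SE 0.18, adjusted p = 5.92e-08) and fell again in 4 of 4 blastocyst libraries (-0.84, SE 0.17, adjusted p = 0.00135). Snrpd3, encoding SmD3, went from 4.28, 6.397, 8.43 and 7.75 FPKM to 33.6, 40.0, 33.9 and 39.1 FPKM in morulae, where the groups did not overlap, and to 37.8 to 60.3 FPKM in blastocysts (first step 2.31, SE 0.19, adjusted p = 2.66e-07). Snrpe, encoding SmE, stood at 176, 158, 265 and 313 FPKM in 2-cell embryos, 465, 504, 596 and 497 in morulae and 969.9, 573, 619.7 and 826 in blastocysts. Its morula libraries were all above its 2-cell libraries (log2 fold change 1.22, SE 0.21, adjusted p = 0.00016), whereas morulae and blastocysts overlapped and the second step did not pass (0.42, SE 0.22, adjusted p = 0.118); with FPKM as deposited that step passed (0.0241). Snrpf, Snrpg, Snrpd1 and Snrpd2 rose by smaller amounts, with log2 fold changes of 0.86, 0.73, 0.59 and 0.57 and no overlap between the groups. Without control 2-cell replicate 4, that of Snrpd1 was 0.38. The call of Snrpd1 was lost with libraries scaled to the same total (0.242), or with all 22 libraries in 1 fit (0.0638), and that of Snrpd2 with libraries scaled to the same total (0.219).

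Snrpf, which encodes SmF, was called higher again in blastocysts. It was at 129, 147, 146 and 156 FPKM in control morulae and 254, 189.5, 209.7 and 252 FPKM in control blastocysts, with every blastocyst library above every morula library (log2 fold change 0.55, SE 0.18, adjusted p = 0.0202). The call of Snrpf was lost without any one of control morula replicate 1 or control blastocyst replicate 6 (adjusted p 0.0514 to 0.0555), or with no filter on low FPKM (0.059). Snrpd1, Snrpd2 and Snrpg were also higher in every blastocyst than in any morula library and did not pass (0.24, 0.34 and 0.25; adjusted p = 0.294, 0.0704 and 0.199). The values of Snrpf are uncertain, because 78.3% of its transcript words of 100 bases also occur in transcripts of Ccdc38, Gm13092 or 4933408J17Rik. Of the snRNP-specific genes, Snrpb2 (U2 protein B'') went from 22.6 to 35.9 FPKM in 2-cell embryos to 114 to 147 in morulae and Snrpa1 (U2 protein A') from 113 to 143 to 190.1 to 247 FPKM, and both rose (2.24 and 0.84 on the log2 scale). Snrpa and Snrpc, which encode proteins of the U1 snRNP, did not pass the first step (0.34 and -0.64) or the second (-0.35 and -0.14). Snrpc was spread widely, at 77.7, 125, 187 and 53.3 FPKM in the 4 control 2-cell libraries. Snrpert, the pseudogene, shares 43.3% of its words with Snrpe and rose with it (0.66), a call that was lost with libraries scaled to the same total (0.085).

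The genes of U2 snRNP factors SF3A and SF3B were spread over a wide range of levels. Sf3b6, whose product contacts the branch point region, was at 188, 165, 116 and 159.9 FPKM in control 2-cell embryos, 142, 170.3, 163 and 193 in morulae and 215, 147, 146 and 161 in blastocysts. The groups overlapped throughout and neither step passed (log2 fold changes 0.09 and -0.10, adjusted p = 0.704 and 0.709). Sf3a3, an SF3A subunit gene, stood at 22.6, 20.8, 24.4 and 24.7 FPKM, then 86.4, 74.5, 85.0 and 88.7 and then 59.9, 65.5, 82.4 and 70.9 FPKM, and rose to the morula without overlap (1.80, SE 0.15, adjusted p = 2.62e-07). Sf3b4, encoding the SF3B subunit of which the yeast counterpart is Hsh49, was at 3.82, 5.07, 9.15 and 3.997 FPKM in 2-cell embryos, 35.7, 18.6, 8.46 and 7.28 in morulae and 1.52, 2.53, 5.96 and 3.37 in blastocysts. Within the morulae, replicates 1 and 2 were far above replicates 7 and 8, and all 4 lay above the 4 blastocyst libraries. It rose in the first step (log2 fold change 1.31, SE 0.38, adjusted p = 0.00656), where 1 of the 2-cell libraries overlapped the morulae, and fell in the second in 4 of 4 libraries (-2.004, SE 0.40, adjusted p = 0.00117). The first of these calls was lost with libraries scaled to the same total (0.0667), and 32.5% of its transcript words occur in Gm7935. Sf3b3 (1.94, then -0.85) and Sf3b1, the gene of the largest SF3B subunit (0.82, then -0.78), likewise rose and then fell, the rise of Sf3b1 being lost with libraries scaled to the same total (0.0521). Sf3b5 rose in the first step (0.44), a call lost without any one of control 2-cell replicates 2, 4 or 5 or control morula replicate 2 (adjusted p 0.0512 to 0.0956), or with libraries scaled to the same total (0.686), or with all 22 libraries in 1 fit (0.0942). Sf3a3 fell in the second step (-0.35), which was lost without any one of control morula replicates 7 or 8 or control blastocyst replicates 1, 4 or 6 (adjusted p 0.0753 to 0.132), or with FPKM as deposited (0.112), or with all 22 libraries in 1 fit (0.0799), and Sf3a1 and Sf3b2, at 2.28 to 20.8 FPKM, passed in neither.

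Among the genes of the Lsm rings, those of LSM3, LSM4 and LSM5 had the steepest rises at the morula stage. Lsm5 stood at 8.32, 10.5, 10.1 and 12.7 FPKM in control 2-cell embryos, 235, 266, 294 and 292 in morulae and 324, 221, 219 and 272 in blastocysts. Lsm3 was at 13.9, 18.5, 15.1 and 15.1 FPKM, then 142, 191, 213 and 180.0, then 361, 288, 211 and 328 FPKM. Lsm4 was at 13.2, 18.9, 13.6 and 15.6 FPKM, then 126, 136, 66.9 and 58.1, then 47.3, 83.8, 71.2 and 62.8 FPKM. All 3 were low in every 2-cell library and far higher in every morula library, with no overlap. Lsm5 rose by 4.58 on the log2 scale (SE 0.18, adjusted p = 6.87e-10), Lsm3 by 3.44 (SE 0.20, adjusted p = 1.49e-08) and Lsm4 by 2.49 (SE 0.25, adjusted p = 1.77e-06), in 4 of 4 libraries each. Lsm3 rose once more in blastocysts (log2 fold change 0.61, SE 0.23, adjusted p = 0.04), where 1 blastocyst library overlapped the morulae. That call was lost without any one of control morula replicates 1, 2 or 8 or control blastocyst replicates 1, 4 or 6 (adjusted p 0.0601 to 0.11), or with no filter on low FPKM (0.132). Lsm7 and Lsm6 rose at the first step (1.75 and 1.25), and Lsm2 did not pass it (-0.33) but fell at the second (-0.45), a call lost without any one of control morula replicates 1 or 2 or control blastocyst replicates 1 or 4 (adjusted p 0.0635 to 0.0941), or with no filter on low FPKM (0.0692), or with FPKM as deposited (0.123), or with all 22 libraries in 1 fit (0.0563).

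Lsm8, which sets the U6 ring apart from the cytoplasmic one, stood at 144, 144, 136 and 188 FPKM in control 2-cell embryos, 174, 230.3, 213 and 211 in morulae and 258, 184, 154 and 173 in blastocysts. The groups overlapped at both steps, and the first was called (log2 fold change 0.43, SE 0.19, adjusted p = 0.0467) while the second was not (-0.21, SE 0.22, adjusted p = 0.425). The call of Lsm8 was lost without any one of control 2-cell replicates 1, 2 or 4 or control morula replicates 2, 7 or 8 (adjusted p 0.0763 to 0.135), or with no filter on low FPKM (0.0882), or with libraries scaled to the same total (0.781), or with all 22 libraries in 1 fit (0.263); scaled to the same total, its log2 fold change was 0.05. Lsm1, whose product takes the place of LSM8 in the ring that promotes mRNA decay, fell from 33.9, 33.6, 30.6 and 32.3 FPKM in 2-cell embryos to 16.5, 20.0, 19.3 and 20.3 FPKM in morulae (log2 fold change -0.76, SE 0.17, adjusted p = 0.00145), again without overlap. Lsm14a, encoding a protein of P-bodies, had 98.5, 101, 69.1 and 78.5 FPKM in control 2-cell embryos, 7.91, 5.19, 6.17 and 6.20 in morulae and 13.1, 11.3, 8.48 and 12.3 in blastocysts. Its 2-cell libraries were far above all others, and its blastocyst libraries above its morula libraries. It fell by 3.58 on the log2 scale (SE 0.20, adjusted p = 9.33e-09) and then rose in 4 of 4 blastocyst libraries (log2 fold change 0.66, SE 0.19, adjusted p = 0.0101). Its paralog Lsm14b reached 1 FPKM in 2-cell libraries alone, so that it could only be counted as lower, and nothing is read from its test.

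Lsm10, which encodes a subunit of the U7 snRNP that processes replication-dependent histone pre-mRNA, went down and up again. It was at 67.9, 76.8, 46.0 and 46.8 FPKM in control 2-cell embryos, 5.36, 4.19, 5.44 and 5.45 in morulae and 40.3, 52.2, 34.6 and 34.7 in blastocysts. The morula libraries were all below those of both other stages. The fall (log2 fold change -3.28, SE 0.23, adjusted p = 5.99e-08) and the rise (2.67, SE 0.18, adjusted p = 3.63e-07) were each seen in 4 of 4 libraries. Lsm12, encoding an Lsm-domain protein outside the rings, did the opposite, with 19.6, 19.9, 16.8 and 21.8 FPKM in 2-cell embryos, 136, 119.96, 85.1 and 90.2 in morulae and 24.8, 31.4, 42.2 and 41.6 in blastocysts. Its morulae were above all libraries of the other stages, and its blastocysts above its 2-cell embryos. It rose (log2 fold change 2.38, SE 0.17, adjusted p = 9.68e-08) and fell (-1.69, SE 0.18, adjusted p = 1.01e-05) without overlap.

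Prpf genes were mostly low, and 3 of 11 tested rose at the morula stage, beside 43% of all genes. Prpf31, whose product joins the U4 and U6 snRNPs to U5, went from 4.50, 5.49, 5.82 and 5.71 FPKM in control 2-cell embryos to 40.6, 29.2, 29.9 and 27.4 in morulae and 15.6, 18.8, 19.3 and 21.04 in blastocysts, each group apart from the one before. It rose (log2 fold change 2.34, SE 0.15, adjusted p = 2.48e-08) and fell (-0.81, SE 0.14, adjusted p = 0.00038). Prpf6 and Prpf8, encoding a bridging protein of the tri-snRNP and the protein at the catalytic core, rose at the first step as well (1.18 and 0.90). Prpf6 was then called lower in blastocysts (-0.90), lost without any one of control morula replicates 1, 7 or 8 (adjusted p 0.0608 to 0.0687), or with no filter on low FPKM (0.134), or with FPKM as deposited (0.0736); without control blastocyst replicate 1 its log2 fold change was -0.49. Prpf18, needed for the second catalytic step, was at 16.5, 11.4, 20.4 and 22.4 FPKM, 26.2, 20.5, 20.3 and 20.97 FPKM and 8.34, 11.3, 11.1 and 11.7 FPKM in stage order. Its blastocysts lay below all morulae, whereas 2-cell embryos and morulae overlapped, and only the second step passed (log2 fold change -1.07, SE 0.14, adjusted p = 4.41e-05; first step 0.33, SE 0.18, adjusted p = 0.116). Prpf3 also fell at the second step (-0.76). Prpf38b, whose product is related to that of Prpf38a, stood at 9.17, 9.28, 11.04 and 9.58 FPKM, then 7.12, 6.22, 3.76 and 4.23, then 3.68, 2.78, 3.57 and 3.58 FPKM, and fell at both steps (log2 fold change -0.81, SE 0.17, adjusted p = 0.00087; then -0.56, SE 0.19, adjusted p = 0.0225). The second of these calls was lost without any one of control morula replicates 1 or 2 or control blastocyst replicate 4 (adjusted p 0.0585 to 0.0738), or with no filter on low FPKM (0.0533), or with FPKM as deposited (0.0546). Prpf4 fell at the first step (-0.59), and Prpf39 and Prpf4b passed neither step, at 5.13 to 15.2 FPKM over the 22 libraries.

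Prpf38a, which encodes a protein of the complex in which the spliceosome is activated, split the control 2-cell libraries. Replicates 1 and 4 had 199 and 196 FPKM, while replicates 2 and 5 had 71.4 and 68.4 FPKM. The 3 KD 2-cell libraries all resembled the higher pair, at 230.3, 217 and 202 FPKM. Control morulae were at 77.4, 89.6, 102 and 111 FPKM and control blastocysts at 113, 104, 105 and 107 FPKM, between the 2 pairs. Neither step passed (log2 fold change -0.33, SE 0.36, adjusted p = 0.402; then 0.10, SE 0.18, adjusted p = 0.64).

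Of the 10 SR protein genes tested, 5 rose, 3 fell and 2 did not pass at the morula stage, where 43% of all genes rose and 40.3% fell. Srsf3, the gene of one of the smallest SR proteins, stood at 26.8, 26.2, 26.9 and 31.4 FPKM in control 2-cell embryos, 294, 257, 246 and 242 in morulae and 189, 202, 197 and 225 in blastocysts. Each group was apart from the others, with morulae the highest. Srsf3 rose in 4 of 4 libraries (log2 fold change 3.17, SE 0.14, adjusted p = 1.57e-09), and its smaller fall (-0.44, SE 0.13, adjusted p = 0.011) was lost with all 22 libraries in 1 fit (0.123). Srsf7, whose product carries a zinc knuckle, had the highest mean of the SR protein genes in each group and stood at 289.7, 298, 229.9 and 259 FPKM, 474, 587, 621 and 615 FPKM and 573, 526, 410.0 and 441 FPKM in stage order. It rose without overlap (log2 fold change 1.08, SE 0.20, adjusted p = 0.000275) and did not pass the second step (-0.33, SE 0.20, adjusted p = 0.174), which it did without control morula replicate 1 (adjusted p = 0.0409), or with libraries scaled to the same total (0.0118). Srsf6 was at 18.4, 17.1, 31.5 and 24.9 FPKM, 107, 86.5, 61.4 and 55.4 FPKM and 25.6, 45.6, 49.1 and 36.7 FPKM, and Srsf9 at 11.3, 11.5, 8.79 and 11.3 FPKM, 41.7, 43.2, 24.7 and 15.8 FPKM and 12.2, 14.04, 11.3 and 11.9 FPKM. For both, every morula library was above every control library of the other stages. Srsf6 rose (log2 fold change 1.70, SE 0.20, adjusted p = 7.33e-06) and fell (-1.04, SE 0.20, adjusted p = 0.00101), and so did Srsf9 (log2 fold change 1.35, SE 0.27, adjusted p = 0.000454; then -1.25, SE 0.25, adjusted p = 0.00127).

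Srsf2, the gene of SC35, rose and fell as well (1.65, then -0.77). Srsf4 was the SR gene with the steepest fall at the first step, from 8.07, 6.52, 6.59 and 9.46 FPKM in control 2-cell embryos to 2.26, 1.99, 0.890 and 1.37 FPKM in morulae, with 0.995, 1.75, 1.85 and 2.26 FPKM in blastocysts. No morula library reached a 2-cell library (log2 fold change -1.75, SE 0.20, adjusted p = 4.23e-06), and morulae and blastocysts overlapped (0.00, SE 0.19, adjusted p = 0.998), although 36.3% of its transcript words also occur in Gm12992. Srsf5 fell at the first step (-0.73). Srsf10, whose product represses splicing when dephosphorylated, was called lower at both (-0.61 and -0.37). The first call of Srsf10 was lost without any one of control 2-cell replicates 1 or 2 or control morula replicates 1, 2, 7 or 8 (adjusted p 0.0568 to 0.0853), or with no filter on low FPKM (0.0893), and the second without any one of control morula replicates 2, 7 or 8 or control blastocyst replicates 1, 4 or 6 (adjusted p 0.0645 to 0.0755), or with FPKM as deposited (0.107), or with all 22 libraries in 1 fit (0.329). Srsf1, the gene of ASF/SF2, fell at the second step (-0.72), and Srsf11 passed neither, at 22.4 to 40.8 FPKM.

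In 2-cell embryos, KD and control libraries were compared at the stage where H2afz was already lower in every KD library. By limma, 0 of 53 members were called higher and 0 lower, as were 0% and 0% of all 12160 genes tested. H2afz itself did not pass in this fit, so 0 calls do not show that the members were unchanged. At an unadjusted p under 0.05 there were 3 members (Prpf38a, Prpf39 and Snrpb) and 701 of all genes. Members and all genes had medians of 0.00 and 0.00, and 27 members were higher and 26 lower; the sign of the members' median changed with the scaling. By subfamily the medians were 0.08 (Snrp), 0.01 (Sf3), -0.02 (Lsm), -0.09 (Prpf) and -0.01 (Srsf). Snrpb stood at 62.1, 56.4, 74.4 and 79.5 FPKM in control and 40.0, 56.5 and 42.3 FPKM in KD libraries, where 1 KD value fell just inside the control range (log2 fold change -0.49, SE 0.16, adjusted p = 0.828). Prpf39, related to a U1 snRNP protein of yeast, was at 8.06, 9.36, 6.14 and 7.96 FPKM in control and 9.22, 11.03 and 15.2 FPKM in KD libraries (0.58, SE 0.22, adjusted p = 0.828). For Prpf38a, the KD libraries lay above the control mean in 3 of 3 cases and the SE was the widest of the 3 (0.94, SE 0.37, adjusted p = 0.828). These 3 genes were picked for mention once their values were known. In the other subfamilies the genes with the highest mean over the 22 libraries did not pass either, with log2 fold changes of 0.36 for Snrpe, 0.28 for Srsf7, -0.10 for Lsm8 and 0.01 for Sf3b6. With all 22 libraries in 1 fit, 26 genes were called higher and 20 lower in 2-cell embryos, with 0 members in either direction.

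In morulae, 4 members were called with KD, 1 higher and 3 lower. Sf3a3, the SF3A subunit gene, was at 86.4, 74.5, 85.0 and 88.7 FPKM in control and 45.9, 45.8 and 43.2 FPKM in KD morulae. Lsm10, of the histone pre-mRNA processing U7 snRNP, was at 5.36, 4.19, 5.44 and 5.45 FPKM in control and 1.99, 3.31 and 2.32 FPKM in KD morulae. Prpf31, of the tri-snRNP, was at 40.6, 29.2, 29.9 and 27.4 FPKM in control and 18.4, 19.6 and 18.7 FPKM in KD morulae. In all 3 genes every KD library lay below every control library. Sf3a3 fell (log2 fold change -0.76, SE 0.14, adjusted p = 0.00843), Lsm10 fell (-0.70, SE 0.18, adjusted p = 0.0327) and Prpf31 fell (-0.58, SE 0.14, adjusted p = 0.0245). Snrpd2, encoding SmD2, was at 73.0, 69.6, 83.6 and 63.8 FPKM in control and 95.1, 90.3 and 94.5 FPKM in KD morulae, and rose in 3 of 3 libraries without overlap (0.49, SE 0.14, adjusted p = 0.0464). The call of Sf3a3 was kept in every setting. The call of Lsm10 was lost without any one of control morula replicates 7 or 8 or KD morula replicates 1 or 6 (adjusted p 0.0739 to 0.127), or with no filter on low FPKM (0.106), or with all 22 libraries in 1 fit (0.0768). That of Prpf31 was lost without any one of control morula replicate 7 or KD morula replicates 1 or 2 (adjusted p 0.0549 to 0.0999), or with no filter on low FPKM (0.0517), and that of Snrpd2 without any one of control morula replicates 1, 2 or 8 or KD morula replicates 1, 2 or 6 (adjusted p 0.051 to 0.131), or with no filter on low FPKM (0.0933), or with FPKM as deposited (0.0704), or with libraries scaled to the same total (0.11).

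These calls were 1 of 52 members higher and 3 lower, beside 4.22% and 9.05% of all 10989 genes tested in morulae, shares too close to read anything from the members' counts. With a log2 fold change beyond 1 as well, limma called 0 members in either direction, against 1% of all genes higher and 2.59% lower; 9 members had an unadjusted p under 0.05, beside 3350 of all genes. The members' median was 0.04 and that of all genes 0.02, with 30 members higher and 22 lower, and the members' median changed sign with the scaling. Of all calls 31.8% were higher, but 15.3% with FPKM as deposited and 11.9% with libraries scaled to the same total, where the median of all genes was -0.09 and -0.13. Under those scalings 0 members were called higher and 6 or 7 lower. With low against high replicate numbers as a covariate, 3 members were called higher and 4 lower, and 777 and 1261 of all genes in place of 464 and 995. Medians by subfamily were 0.13 (Snrp), 0.19 (Srsf), 0.01 (Lsm), -0.02 (Sf3) and -0.06 (Prpf). Among the genes with the highest mean over the 22 libraries, Snrpe (0.04), Srsf7 (0.17), Lsm8 (0.17) and Sf3b6 (0.25) did not pass. Prpf38a was at 66.3, 64.5 and 71.8 FPKM in KD morulae, below every control morula, and did not pass (log2 fold change -0.35, SE 0.19, adjusted p = 0.235), although it did without control morula replicate 1 (adjusted p = 0.0409), or with FPKM as deposited (0.0467), or with libraries scaled to the same total (0.026). Srsf3 was at 126 FPKM in KD morula replicate 1 and at 270.4 and 237 FPKM in replicates 2 and 6 (-0.24, SE 0.25, adjusted p = 0.536). The morula and blastocyst markers moved with the KD: the 6 genes summed to 223, 219.8, 248 and 288 FPKM in control and 122, 103 and 149.7 FPKM in KD morulae, led by Nanog in control and by Krt18 in KD libraries, with 5 of 6 genes above a mean of 1 FPKM in both and Sox2 below a mean of 1 FPKM. Nanog was far lower in every KD library (62.9, 103, 113 and 143 FPKM in control and 17.9, 11.6 and 32.5 in KD morulae), Pou5f1 and Tfap2c were lower without overlap, and Krt8 (19.3 to 32.4 and 20.8 to 33.4 FPKM), Krt18 (47.8 to 80.9 and 36.9 to 54.2 FPKM) and Sox2 overlapped. The trophectoderm list (Cdx2, Gata3, Eomes and Tead4) was also apart, at 60.01, 44.8, 34.1 and 37.9 FPKM in control and 30.2, 32.2 and 32.3 FPKM in KD morulae. Tead4 was the most abundant, and 3 of 4 genes were above a mean of 1 FPKM. Gata3 was lower in every KD library, while Tead4, Cdx2 and Eomes overlapped. The part of either list in the members' changes was not tested.

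The paper reports that far fewer KD than control embryos formed blastocysts, while development to the morula was unaffected. How KD embryos were picked at 94 h is not stated. An effect of KD and a difference in stage or in the embryos picked therefore cannot be told apart in the blastocyst comparisons. In blastocysts, 13 members were called with KD: 9 rose and 4 fell. By limma with Benjamini-Hochberg adjustment these are 9 and 4 of 52 tested, beside 16.7% of all 11828 genes called higher and 19.8% called lower. A log2 fold change beyond 1 was also met by 2 members higher and 1 lower, beside 6.1% and 7.76% of all genes. The median was 0.08 over the members and 0.00 over all genes, with 31 members higher and 21 lower, and 21 members had an unadjusted p under 0.05, beside 5440 of all genes. By subfamily, calls higher and lower were 2 and 0 of 12 Snrp, 2 and 1 of 8 Sf3, 1 and 2 of 11 Lsm, 1 and 0 of 11 Prpf and 3 and 1 of 10 Srsf genes, with medians of 0.01, 0.13, -0.25, 0.21 and 0.19. For the zeros, limma gave an unadjusted p under 0.05 to 3 Snrp and 6 Prpf genes, of which 2 and 1 were called higher. Scaled to the same total, 9 members were called higher and 2 lower.

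Of the 20 Snrp and Sf3 genes tested, 4 were called higher and 1 lower, beside 16.7% and 19.8% of all genes. Snrpb, encoding SmB, was at 199, 227, 267 and 276 FPKM in control and 543, 408, 355 and 356 FPKM in KD blastocysts. Every KD library was above every control library, and 3 of the KD values were within the range of the control morulae. It rose in 4 of 4 KD libraries (log2 fold change 0.77, SE 0.19, adjusted p = 0.00861). Snrpa, a U1 snRNP protein gene, was at 56.0, 89.8, 112 and 88.4 FPKM in control and 127, 107, 134 and 125 FPKM in KD libraries, with 1 library of each group inside the range of the other (0.55, SE 0.17, adjusted p = 0.0262). The call of Snrpa was lost without any one of control blastocyst replicates 1, 4 or 6 or KD blastocyst replicates 1 or 6 (adjusted p 0.0554 to 0.0628), or with no filter on low FPKM (0.0655). Sf3b4 was at 1.52, 2.53, 5.96 and 3.37 FPKM in control and 13.2, 4.23, 16.0 and 11.2 FPKM in KD libraries, where KD replicate 4 fell inside the control range and the other 3 were above it. It had the largest rise of the members (log2 fold change 1.47, SE 0.34, adjusted p = 0.00574), in 4 of 4 libraries against the control mean, and was lost with no filter on low FPKM (0.0557). Sf3b1, the gene of the subunit that clamps the branch helix, was at 32.4, 33.1, 36.2 and 30.4 FPKM in control and 45.7, 56.4, 54.2 and 52.8 FPKM in KD libraries, and rose without overlap (0.65, SE 0.15, adjusted p = 0.00481). Against these, Sf3a3 was at 59.9, 65.5, 82.4 and 70.9 FPKM in control and 46.4, 48.2, 45.6 and 50.8 FPKM in KD libraries, none of which reached a control library. It fell in blastocysts as in morulae (-0.52, SE 0.15, adjusted p = 0.0162), a call lost with libraries scaled to the same total (0.0562).

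The Lsm genes held the largest fall of the members and a rise of more than 1 on the log2 scale. Lsm10 was at 40.3, 52.2, 34.6 and 34.7 FPKM in control and 11.1, 14.5, 9.16 and 12.2 FPKM in KD blastocysts, and Lsm12 at 24.8, 31.4, 42.2 and 41.6 and 70.7, 58.7, 83.1 and 70.7 FPKM. The groups lay far apart for both genes, Lsm10 being low and Lsm12 high in every KD library. Lsm10 fell (log2 fold change -1.69, SE 0.21, adjusted p = 0.000125) and Lsm12 rose (1.02, SE 0.17, adjusted p = 0.000699), each in 4 of 4 libraries. In both genes the KD blastocysts lay between the control morulae and the control blastocysts. This did not hold for all called members. In Sf3a3 and Srsf3 every KD blastocyst lay below both of these control groups, and in Srsf11 above both. Lsm6, of both Lsm rings, was at 41.6, 39.3, 34.9 and 37.0 FPKM in control and 24.6, 26.1, 17.5 and 19.3 FPKM in KD libraries, all of them below control (-0.78, SE 0.20, adjusted p = 0.0094). Lsm3, at 361, 288, 211 and 328 FPKM in control and 177, 293, 156 and 176 FPKM in KD libraries, did not pass (-0.57, SE 0.26, adjusted p = 0.108), nor did Lsm5 (-0.25, SE 0.20, adjusted p = 0.362) or Lsm8 (-0.35, SE 0.24, adjusted p = 0.291).

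Of the Prpf genes, Prpf18 of the second catalytic step was at 8.34, 11.3, 11.1 and 11.7 FPKM in control and 15.9, 14.004, 21.05 and 17.9 FPKM in KD blastocysts. All KD libraries were above all control libraries, of which replicate 1 was the lowest (log2 fold change 0.66, SE 0.15, adjusted p = 0.00604). Prpf6, Prpf3, Prpf4 and Prpf8 had log2 fold changes of 0.76, 0.58, 0.53 and 0.52 and did not pass, with adjusted p values of 0.09, 0.0635, 0.064 and 0.0632. For Prpf6 the control libraries were at 0.921, 5.29, 6.34 and 5.06 FPKM, with replicate 1 far below the others. Prpf38a was at 90.1, 84.0, 66.5 and 75.3 FPKM in KD blastocysts, below every control library (-0.44, SE 0.18, adjusted p = 0.0719), and passed without KD blastocyst replicate 1 (adjusted p = 0.0464), or with FPKM as deposited (0.0239). Among the SR protein genes, Srsf9 was at 12.2, 14.04, 11.3 and 11.9 FPKM in control and 21.3, 14.5, 23.2 and 21.7 FPKM in KD libraries, and Srsf6 at 25.6, 45.6, 49.1 and 36.7 and 57.9, 47.5, 76.0 and 60.7 FPKM. Srsf9 showed no overlap, while for Srsf6 KD replicate 4 fell between control replicates. Srsf9 rose (log2 fold change 0.65, SE 0.17, adjusted p = 0.0112), as did Srsf6 (0.64, SE 0.18, adjusted p = 0.016), whose call was lost with no filter on low FPKM (0.051). Srsf11 was at 24.9, 24.6, 29.5 and 22.4 FPKM in control and 40.8, 38.6, 38.4 and 31.8 FPKM in KD libraries, apart from each other (0.55, SE 0.16, adjusted p = 0.0201), and its call was lost without any one of control blastocyst replicates 4 or 6 or KD blastocyst replicate 1 (adjusted p 0.0538 to 0.0716). Srsf3 was at 189, 202, 197 and 225 FPKM in control and 128, 151, 160.1 and 169 FPKM in KD libraries, all lower than control (-0.41, SE 0.15, adjusted p = 0.0424). The call of Srsf3 was lost without any one of control blastocyst replicates 1, 4 or 6 or KD blastocyst replicates 1, 4, 5 or 6 (adjusted p 0.0591 to 0.116), or with libraries scaled to the same total (0.111), or with all 22 libraries in 1 fit (0.0514). Srsf7 (-0.39, SE 0.21, adjusted p = 0.16), Snrpe (-0.24, SE 0.25, adjusted p = 0.485) and Sf3b6 (-0.25, SE 0.22, adjusted p = 0.399) did not pass.

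**Figure D3:**
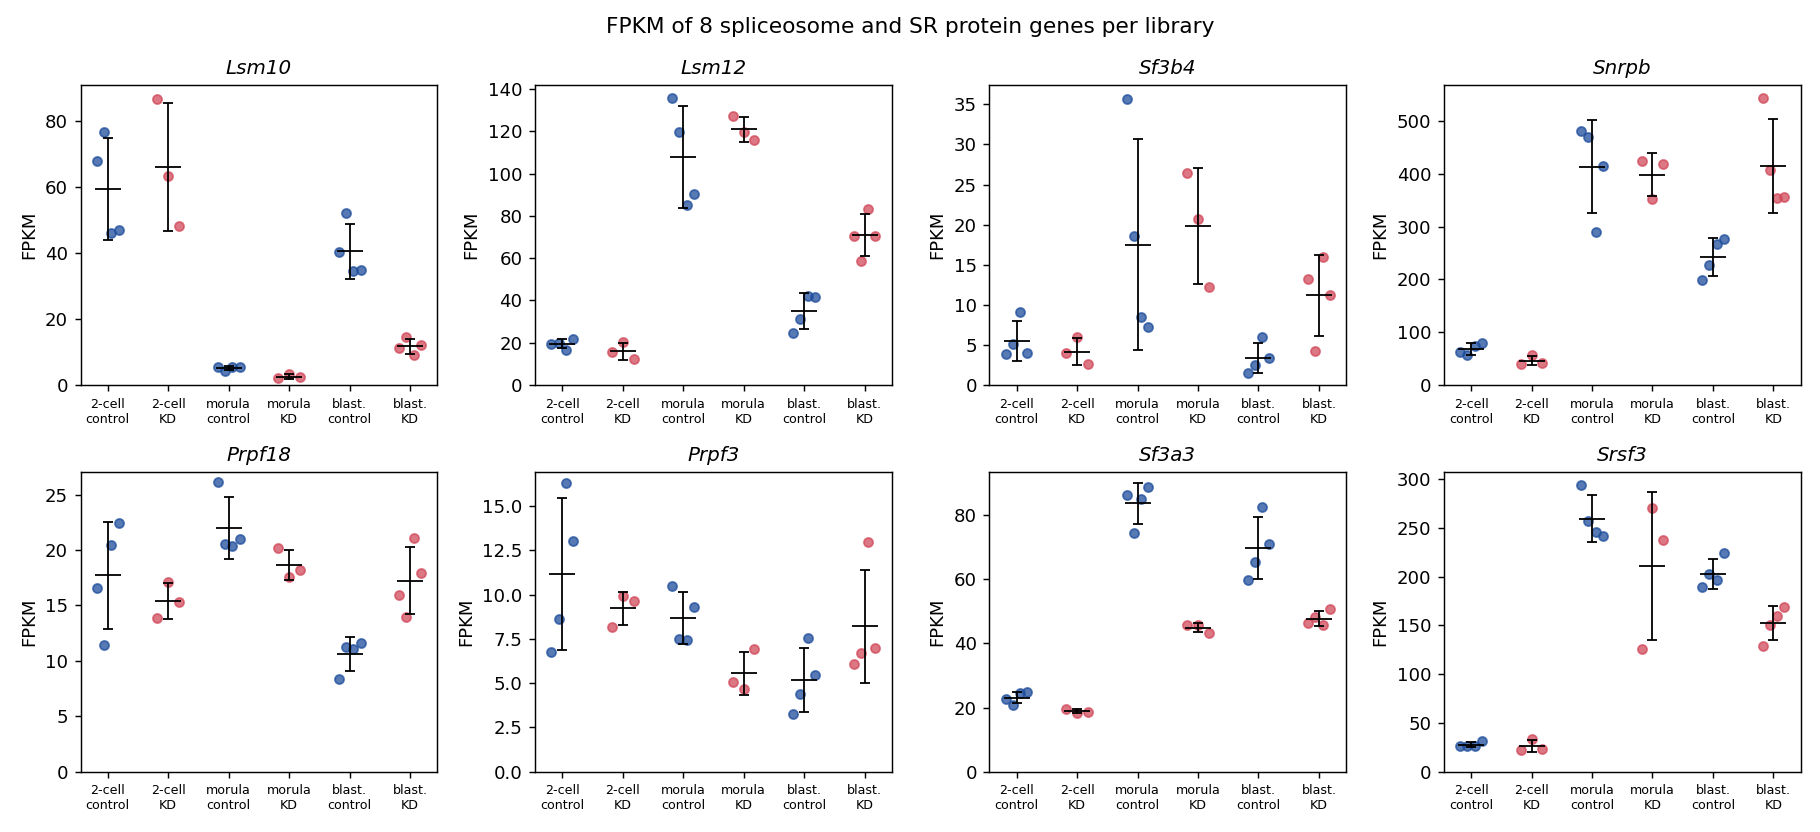
FPKM of 8 genes in each of the 22 libraries, 1 panel for each gene with its own scale from 0; blue points are control and red points KD libraries, and black bars give the mean and SD of the group. Lsm10 was at 34.6 to 52.2 FPKM in control and 9.16 to 14.5 FPKM in KD blastocysts, and Lsm12 at 24.8 to 42.2 and 58.7 to 83.1 FPKM.

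Marker lists moved with the KD in blastocysts too. The 2-cell list summed to 0.787, 0.964, 0.291 and 0.716 FPKM in control and 3.08, 13.98, 3.30 and 9.55 FPKM in KD blastocysts, with 0 and 2 of its 5 genes above a mean of 1 FPKM and Zfp352 the most abundant in both. The morula and blastocyst list summed to 1068, 1562, 1479.5 and 1074 FPKM in control and 686, 862, 1004 and 765 FPKM in KD blastocysts, with all 6 genes above a mean of 1 FPKM and Krt18 the most abundant, at 730.2, 992, 827 and 646 and 369, 461, 399 and 329 FPKM. Both sums were apart between the groups, the first higher and the second lower in KD libraries. Krt18 was the gene of the list that was lower without overlap. Tfap2c was higher in every KD library, at 3.20, 6.50, 8.36 and 8.26 and 12.6, 10.6, 18.4 and 11.4 FPKM, while Pou5f1 (6.81 to 21.6 and 15.1 to 45.8 FPKM), Nanog (100.5 to 195 and 118 to 226 FPKM), Krt8 (225 to 431 and 169.8 to 313 FPKM) and Sox2 overlapped. Oocyte genes summed to 1.71, 2.05, 1.72 and 2.17 FPKM in control and 4.76, 3.38, 1.94 and 2.20 FPKM in KD blastocysts, with Zp3 the most abundant, while the trophectoderm list overlapped, at 44.1 to 59.1 and 38.6 to 77.0 FPKM. Within that list Tead4 was higher in every KD library (5.20, 8.20, 9.60 and 7.98 FPKM in control and 14.7, 9.77, 23.8 and 12.6 in KD blastocysts), while Gata3, Cdx2 and Eomes overlapped. Whether these lists take part in the changes of the spliceosome and SR protein genes was not tested.

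A limma interaction term over 15 libraries asked whether KD acted differently in blastocysts than in morulae. By limma, 2 of 52 members were called higher and 1 lower for blastocysts minus morulae, beside 5.43% and 6.3% of 12727 genes. Lsm10 was lower in KD libraries at both stages and by more in blastocysts (difference in log2 fold change -1.02, SE 0.29, adjusted p = 0.0321). Prpf18, at 26.2, 20.5, 20.3 and 20.97 FPKM in control and 20.1, 17.5 and 18.2 FPKM in KD morulae, was there lower in each KD library than in any control library, and in blastocysts higher (difference 0.72, SE 0.18, adjusted p = 0.0176). Prpf3, of the U4 and U6 snRNP, was at 10.5, 7.48, 7.46 and 9.29 FPKM in control and 5.08, 4.68 and 6.92 FPKM in KD morulae, and at 3.27, 4.39, 7.54 and 5.47 and 6.09, 6.73, 13.0 and 7.01 FPKM in blastocysts. Its KD libraries were below control in morulae and overlapped control in blastocysts, where 4 of 4 were above all but the highest control value (difference 0.99, SE 0.30, adjusted p = 0.0417). The call of Lsm10 was lost without any one of control morula replicates 1 or 2 or KD morula replicates 2 or 6 or control blastocyst replicates 1 or 4 or KD blastocyst replicate 5 (adjusted p 0.0546 to 0.1), or with a pseudocount of 0.1 (0.0807), or with no filter on low FPKM (0.0918), or with libraries scaled to the same total (0.0667). That of Prpf3 was lost without any one of control morula replicates 1, 2 or 8 or KD morula replicates 1 or 2 or control blastocyst replicates 1, 4 or 6 or KD blastocyst replicates 5 or 6 (adjusted p 0.0512 to 0.104), or with no filter on low FPKM (0.113), and that of Prpf18 without KD morula replicate 2 (adjusted p = 0.0502). Prpf18 was called in blastocysts and not in morulae. For the other members called at 1 stage alone, the interaction did not pass: the adjusted p was 0.331 for Sf3b4, 0.0607 for Lsm12, 0.138 for Snrpb, 0.803 for Srsf9, 0.083 for Sf3b1, 0.521 for Srsf6, 0.526 for Srsf11 and 0.44 for Snrpa. It was 0.294 for Lsm6, 0.677 for Srsf3, 0.066 for Prpf31 and 0.111 for Snrpd2, and 0.534 for Sf3a3, called at both stages. The members' median of -0.07, beside -0.01 for all genes, changed sign with the scaling; of all calls 46.3% were higher, and 71.3% with libraries scaled to the same total, where the median of all genes was 0.24 (0.11 with FPKM as deposited) and 7 members were called higher and 0 lower.

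Genes of the same pathway outside the family were counted in 6 lists. In 2-cell embryos limma called none of them, with an unadjusted p under 0.05 for 2 genes of the PRPF19 complex and catalytic step list and 0 genes of the other lists. In morulae, called higher and lower were 1 and 1 of 17 other snRNP and tri-snRNP proteins, 0 and 1 of 7 other factors of U2 and branch point recognition, 1 and 4 of 22 in the list of the PRPF19 complex and catalytic step factors, 0 and 0 of 13 in that of the SMN complex and Sm methylosome, which prepare and load the Sm proteins, 1 and 0 of 14 SR-related proteins and SR kinases and 2 and 0 of 24 hnRNPs, beside 4.22% and 9.05% of all genes. Several of these counts went to 0 when a library was left out, as in the hnRNP list without any one of control replicates 2, 7 and 8 and KD replicates 1, 2 and 6, in the snRNP list without control 7 or KD 1 or 2 (both directions), control 8 (lower) or KD 6 (higher), and in the SR-related list without KD 1 or 2. The PRPF19 list kept 0 to 2 genes called lower without control 2, 7 or 8 or any KD library. In blastocysts the counts were 5 and 1 of 17, 2 and 0 of 7, 5 and 1 of 22, 7 and 0 of 13, 3 and 0 of 15 and 2 and 1 of 25 in the same order, beside 16.7% and 19.8% of all genes. There were 3 genes called higher in the snRNP list without control 1, 4 or 5 or KD 5 and 2 without KD 6, and 3 in the PRPF19 list without control 1 or 6 or KD 1 or 6. The 1 snRNP gene called lower was lost without control 1 or KD 5 or 6. Unadjusted p values under 0.05 were met in morulae by 2 genes of the U2, 4 of the SMN, 3 of the SR-related and 4 of the hnRNP list and in blastocysts by 4 of the U2, 7 of the SMN and 5 of the SR-related list, where a direction had 0 calls. Of all genes, 3350 in morulae and 5440 in blastocysts met this. The 7 SMN genes were those called higher in blastocysts. Medians in blastocysts were 0.15, 0.32, 0.24, 0.55, 0.10 and 0.03, beside 0.00 for all genes, and in morulae 0.01, 0.12, -0.14, -0.05, 0.21 and 0.14, beside 0.02.

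Cwc27, encoding a cyclophilin of the activated spliceosome, was at 10.997, 9.75, 9.71 and 12.3 FPKM in control and 2.98, 5.30 and 5.54 FPKM in KD morulae, and at 18.8, 22.8, 24.0 and 23.2 and 6.75, 7.22, 8.38 and 6.98 FPKM in blastocysts. It fell without overlap in morulae (log2 fold change -0.98, SE 0.22, adjusted p = 0.0178) and in blastocysts (-1.47, SE 0.14, adjusted p = 2.54e-05), the first call being lost without KD morula replicate 1 (adjusted p = 0.0591), or with no filter on low FPKM (0.0948), or with all 22 libraries in 1 fit (0.0664). Smn1, whose product loads Sm rings onto snRNAs, was at 6.98, 15.3, 25.6 and 15.8 FPKM in control and 71.9, 21.9, 45.0 and 42.2 FPKM in KD blastocysts, with 1 KD library inside the control range (log2 fold change 1.47, SE 0.35, adjusted p = 0.00642; lost with no filter on low FPKM (0.0635)). Gemin5, which binds the snRNA in that complex, was at 2.79, 4.31, 3.63 and 4.77 FPKM in control and 8.58, 6.64, 13.9 and 10.2 FPKM in KD blastocysts and rose without overlap (1.13, SE 0.20, adjusted p = 0.00103). Also higher in KD blastocysts without overlap were Crnkl1 of the PRPF19-related factors (1.18, SE 0.16, adjusted p = 0.000171), Puf60 (1.07, SE 0.25, adjusted p = 0.00562) and Rbm17 (0.69, SE 0.18, adjusted p = 0.0119) of branch point recognition, Cd2bp2 of the U5 snRNP (0.92, SE 0.20, adjusted p = 0.00372), Rnps1 (0.70, SE 0.15, adjusted p = 0.00376) and Hnrnpab (0.94, SE 0.20, adjusted p = 0.00308), each in 4 of 4 libraries. Hnrnpa0 was lower in 4 of 4 (-0.95, SE 0.18, adjusted p = 0.00186). Snrnp70, of the U1 snRNP, was at 1.60, 4.75, 1.17 and 2.95 FPKM in control and 2.91, 5.84, 9.52 and 10.9 FPKM in KD blastocysts, which overlapped (1.18, SE 0.35, adjusted p = 0.0194; lost without any one of control blastocyst replicates 1 or 5 or KD blastocyst replicates 5 or 6 (adjusted p 0.0505 to 0.0581), or with no filter on low FPKM (0.116)). The kinase gene Clk3 was higher with 1 KD library inside the control range (0.71, SE 0.21, adjusted p = 0.0194; lost without any one of control blastocyst replicate 4 or KD blastocyst replicate 1 (adjusted p 0.0501 to 0.0545), or with no filter on low FPKM (0.072)). In morulae, the other called genes named from the lists were Dhx16, a helicase gene (0.90, SE 0.15, adjusted p = 0.00714), U2af1l4 (-0.96, SE 0.18, adjusted p = 0.00879; lost with no filter on low FPKM (0.0539)) and Tra2a (0.61, SE 0.14, adjusted p = 0.0203; lost without any one of KD morula replicates 1 or 2 (adjusted p 0.0671 to 0.0951)), all without overlap in 3 of 3 KD libraries. Eftud2 of the U5 snRNP (-0.64, SE 0.16, adjusted p = 0.0241; lost without any one of control morula replicates 7 or 8 or KD morula replicates 1 or 2 (adjusted p 0.0504 to 0.0934), or with no filter on low FPKM (0.057), or with all 22 libraries in 1 fit (0.151)) and Snrpn, the SmN gene (0.55, SE 0.13, adjusted p = 0.0212; lost without any one of control morula replicate 7 or KD morula replicates 1, 2 or 6 (adjusted p 0.0524 to 0.106)), were apart from control in 3 of 3 libraries as well. Hnrnpr (0.53, SE 0.14, adjusted p = 0.0319; lost without any one of control morula replicates 2, 7 or 8 or KD morula replicates 1, 2 or 6 (adjusted p 0.0575 to 0.131), or with FPKM as deposited (0.0877), or with libraries scaled to the same total (0.136), or with all 22 libraries in 1 fit (0.0539)) was apart too, and Ptbp3 (0.61, SE 0.18, adjusted p = 0.0469; lost without any one of control morula replicates 2, 7 or 8 or KD morula replicates 1, 2 or 6 (adjusted p 0.0668 to 0.174), or with no filter on low FPKM (0.119), or with FPKM as deposited (0.127), or with libraries scaled to the same total (0.174)) had 1 control library above 2 of its KD libraries.

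The promoters of these genes were read for known motifs. RefSeq promoters of build GRCm38.p6, from 250 bases before to 50 bases after the start of a gene, were at hand for 48 of the 58 members and for 27025 genes in all, and the first one listed was used for each gene. Both strands were searched for exact matches of 6 motifs, and the share among the 9220 promoters of genes tested in any comparison was added after the share of all promoters had been seen. The motifs found were GGGCGG (SP) in 34 members, 70.8%, against 35.9% of all promoters and 60.6% of those of genes tested; CCGGAAG (ETS) in 18 members, 37.5%, against 9.12% of all promoters and 19.3% of those of genes tested; and CCAAT (NFY) in 20 members, 41.7%, against 37.9% of all promoters and 40.4% of those of genes tested. Rarer were CACGTG (MYC/MAX) in 4 members, 8.33%, against 7.24% of all promoters and 10.1% of those of genes tested; AAGATGGCG (YY1) in 3 members, 6.25%, against 1.49% of all promoters and 3.34% of those of genes tested; and GCGCATGCG (NRF1) in 2 members, 4.17%, against 1.81% of all promoters and 3.89% of those of genes tested. Matches of different motifs shared bases in 2 members. A match is only a description of the letters in this window. Stretches upstream of the start that lie in no annotated exon are given for Lsm10 and Sf3a3, which fell with KD in morulae and blastocysts, for Lsm5, the member with the largest rise to the morula, and for Srsf6 and Srsf9, which rose with KD in blastocysts. They were chosen after the values were seen. Outside these stretches the searched windows held 1 ETS match for Sf3a3, 2 ETS matches for Lsm5 and 1 SP match for Lsm10. The window of Srsf9 held 3 SP matches in all. In the printed stretches, capitals mark matches of the motifs (NFY, read as CCAAT or ATTGG, and SP, read as GGGCGG or CCGCCC), and the stretch of Sf3a3 holds none. Each is 120 bases long and is written 5′ to 3′ on the gene's strand, ending 30, 85, 11, 0 and 0 bases before the start in that order: Lsm10 at chr4:126096503-126096622 on the plus strand, Sf3a3 at chr4:124714656-124714775 on the plus strand, Lsm5 at chr6:56704711-56704830 on the minus strand, Srsf6 at chr2:162931388-162931507 on the plus strand and Srsf9 at chr5:115327057-115327176 on the plus strand.
Lsm10: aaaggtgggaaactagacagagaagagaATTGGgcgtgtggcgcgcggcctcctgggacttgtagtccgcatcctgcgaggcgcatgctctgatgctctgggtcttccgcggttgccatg
Sf3a3: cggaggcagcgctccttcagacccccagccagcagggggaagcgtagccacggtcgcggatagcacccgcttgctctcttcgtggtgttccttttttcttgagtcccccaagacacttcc
Lsm5: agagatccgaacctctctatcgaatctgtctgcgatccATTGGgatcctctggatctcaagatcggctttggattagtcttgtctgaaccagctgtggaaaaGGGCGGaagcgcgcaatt
Srsf6: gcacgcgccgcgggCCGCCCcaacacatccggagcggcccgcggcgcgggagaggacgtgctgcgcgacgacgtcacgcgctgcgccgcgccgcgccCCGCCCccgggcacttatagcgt
Srsf9: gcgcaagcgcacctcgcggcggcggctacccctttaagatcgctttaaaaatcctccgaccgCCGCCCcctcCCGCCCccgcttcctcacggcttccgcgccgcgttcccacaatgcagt

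Some levels rest on sequence that other genes share, as counted over words of 100 bases of each gene's transcripts. Beside Snrpf, Snrpert, Srsf4 and Sf3b4, shares of 10% or more were found for Srsf2 (16.6%, with Mettl23 and Mfsd11), Prpf31 (14%, with the antisense gene Gm15927), Sf3a2 (12.4%, with Plekhj1), Lsm5 (11.8%, with Gm7846 and Gm10074) and Lsm7 (10%, with Gm10146 and Gm13182). Fragments of these genes may have been split or shared between the copies, and the values of these 9 genes are uncertain to that extent.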

How the data were processed

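Polyadenylated RNA of 22 libraries was sequenced. The authors aligned reads to mm10 (GRCm38) with STAR and quantified FPKM with StringTie 2.1.4. They counted reads with featureCounts 1.6.2, tested with DESeq2 1.30.1 and deposited FPKM for 55335 genes. Depth per library is not given, so its precision is unknown. The label groups were compared from these deposited FPKM alone, and 0 value columns lacked a sample.

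Within each comparison, each library was divided by a size factor, its median FPKM relative to each gene's geometric mean, taken from genes detected in every library of the comparison (0.874 to 1.17). The factors were divided by their geometric mean, a step added after a first run was seen. The members called were the same in both versions. Genes reaching 1 FPKM in 3 or more libraries were fitted as log2(FPKM + 1) with limma 3.58.1 (moderated variance with a trend) in R 4.3.3, with Benjamini-Hochberg adjustment over all genes tested, and called at an adjusted p under 0.05. A second rule also required an absolute log2 fold change above 1. The scripts were tested on simulated data. Tables and figures used Python 3.11.15, pandas 2.3.3, numpy 2.4.6 and matplotlib 3.10.9.

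The rule for named genes gave full statistics to the 5 called members with the largest rise and the 5 with the largest fall per comparison, the member of each subfamily with the highest mean over the 22 libraries, KD calls also past the second rule and members called for the interaction, and named 2 called genes per pathway list and KD comparison. Further statistics were added once values were known. Members and lists were chosen with earlier results of these data known. Alternatives were a pseudocount of 0.1, no filter, FPKM as deposited, equal totals, each library left out, all 22 libraries in 1 fit, a replicate block and the range of replicate numbers as a covariate. Protein sequences, planned for description, were not at hand.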

Additional observations from a re-analysis of the deposited data

Results flagged for a closer look

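In 12 of 228 gene and group combinations of 4 libraries (5.26%) a single library lay far from the other 3, where chance flags about 1 in 20 groups. Control 2-cell replicate 4 held 4 of these values: Prpf19 at 0.937 FPKM (others 0.416 to 0.480), Snrpd2 at 41.2 (50.3 to 50.6), Srsf2 at 78.1 (49.0 to 52.1) and Srsf9 at 8.79 (11.3 to 11.5). Control blastocyst replicate 1 held 3: Prpf18 at 8.34 FPKM (11.1 to 11.7), Prpf6 at 0.921 (5.06 to 6.34) and Sf3b3 at 4.67 (8.76 to 9.27). The others were Lsm10 at 4.19 FPKM in control morula replicate 2 (5.36 to 5.45), Prpf18 at 26.2 in control morula replicate 1 (20.3 to 20.97), Prpf38b at 2.78 in control blastocyst replicate 4 (3.57 to 3.68), Srsf3 at 31.4 in control 2-cell replicate 5 (26.2 to 26.9) and Srsf5 at 110 in KD blastocyst replicate 6 (77.1 to 78.9).

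The KD effect differed between blastocysts and morulae by the limma interaction test for 3 members, with differences in log2 fold change of -1.02 for Lsm10, 0.72 for Prpf18 and 0.995 for Prpf3, beside 5.43% of all genes called higher and 6.3% lower. Each of the 3 calls was lost on leaving out at least 1 single library, those of Lsm10 and Prpf3 also with no filter, and that of Lsm10 also with a pseudocount of 0.1 or equal totals.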

How the results depend on the processing

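No result changed direction while called. Counts of members called higher and lower moved by more than 1.5 times in several fits, and the cause was not tested. In KD morulae (1 higher, 3 lower), members higher were 0 with no filter, with FPKM as deposited and with equal totals, 3 in the fit of all 22 libraries and with a covariate for low against high replicate numbers, and 0 to 1 with a library left out; members lower were 1 with no filter, 6 with FPKM as deposited, 7 with equal totals and 1 to 6 with a library left out. In KD blastocysts (9 higher, 4 lower), 2 were lower with equal totals. In control morulae against 2-cell embryos (30 higher, 9 lower), 16 were lower with equal totals and 14 with all 22 libraries. In control blastocysts against morulae (4 higher, 18 lower), 10 were higher with FPKM as deposited, 8 with all 22 libraries and 2 to 6 with a library left out. For the interaction (2 higher, 1 lower), members higher were 1 with no filter, 4 with FPKM as deposited, 7 with equal totals, 4 with that covariate and 0 to 4 with a library left out; members lower were 0 with a pseudocount of 0.1, with no filter and with equal totals, and 0 to 1 with a library left out. In 2-cell embryos 0 members were called in every fit. With the replicate block, 0 members were called higher in KD morulae, 7 lower in KD blastocysts and 1 higher for the interaction. In control morulae against 2-cell embryos the block left 1 residual degree of freedom, and 22 members were called higher and 9 lower. There the calls of Snrpa1, Snrpf, Snrpg, Snrpd1, Snrpd2, Snrpert, Sf3b5, Lsm8 and Prpf4 were lost. Libraries with a shared number deviated with correlations of 0.208, 0.0147 and 0.214 in 2-cell embryos, 0.181 and 0.0943 in morulae and 0.0859, -0.11, 0.353 and 0.00151 in blastocysts, and not every library correlated best with its own number, so the numbers were not taken to pair them. KD morula replicate 6 deviated with control replicates 7 and 8 (0.185 and 0.346) and against 1 and 2 (-0.278 and -0.207), while KD replicates 1 and 2 correlated above 0 with control 1 and 2 and below 0 with 7 and 8. In 2-cell embryos each KD library did correlate best with the control of its own number, KD 1 almost as much with control 2 (0.205). There KD 1 deviated against control 4 and 5 (-0.237 and -0.192) and KD 4 against control 1 and 2 (-0.168 and -0.196).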
